A study of Mus musculus with 24 samples.

Results

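The Hox genes of the A, B, C and D clusters were examined in mouse visceral fat. Members were taken by symbol, as every row of the deposited count table named Hox followed by a cluster letter and a number, whatever its count, which gave 39 of 27179 genes. There were 11 genes of cluster A on chromosome 6, 10 of cluster B on chromosome 11, 9 of cluster C on chromosome 15 and 9 of cluster D on chromosome 2 (annotation of GRCm38). Of the 39, 32 had enough counts to be tested. The other 7 (Hoxb1, Hoxb13, Hoxc12, Hoxc13, Hoxd1, Hoxd12 and Hoxd13) were not; Hoxd1 had 57 counts over all libraries and no other of these had more than 16.

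Total visceral fat, labelled visceral/perigonadal, came from mice 27 to 33 weeks old and was sequenced in 24 libraries, 4 in each of 6 groups. Pparg knockout males and females (genotype PpargFoxp3cre) and Tbet knockout males and females (genotype TbetFoxp3cre) were set against control males and females (genotype Foxp3cre). In all 3 genotypes Cre comes from the Foxp3 locus, whose product marks regulatory T cells, so that the deletions concern those cells while the RNA comes from the whole tissue. Each group held 2 libraries of each of 2 batches named in the titles; replicates 1 and 3 are batch 1, and replicates 2 and 4 are batch 2. For control female replicate 1 the labels disagree, since its source name gives batch 2; it was kept in batch 1, as in its title. With that library in batch 2, 22 Hox genes were called between males and females over the 3 genotypes, where 7501 of 17824 genes were. With it in batch 1 the number was also 22, where 7627 genes were called. Whether each library is a different animal is not stated, and a p-value here speaks of the spread among libraries, part of which may be technical.

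Hox genes encode homeodomain transcription factors. Within a cluster they lie in the order in which the embryo uses them from head to tail, with low paralog numbers at the front and high numbers at the hind end. Adult stromal cells, among them the progenitors of fat cells, keep a pattern of Hox expression that depends on where in the body they lie, and fat depots differ in it. Perigonadal fat lies along the epididymis in males and beside the ovary and uterus in females, so in these libraries sex and the position of the depot cannot be told apart. In bulk tissue, fewer cells of a type and less RNA per cell cannot be told apart either.

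Total counts were between 8345575 and 31022845 per library, of which 5906 to 30498 fell on Hox genes. Summed markers of mature adipocytes were 25129 to 58256 CPM (counts scaled to library size) in males and 8383 to 41382 CPM in females. Adipocyte transcripts were thus present in every library, which does not show the depot they came from. The lowest sum was that of control female replicate 1, which also held 4629 CPM of the oviduct glycoprotein gene Ovgp1, against a median of 2.97 CPM over the 12 female libraries, and 62.7 CPM of Pax8, a transcription factor of reproductive-tract and kidney epithelium. Pax8 was above 5 CPM in 7 male libraries as well (Pparg knockout replicates 1 and 4, Tbet knockout replicates 1, 2 and 4, control replicates 2 and 4), and Tbet knockout male replicate 4 held 3008 CPM of the epididymal gene Crisp1. Counts of Hox genes called between the sexes are also given without these 8 libraries. That leaves replicate 3 as the only Tbet knockout male library, and replicates 1 and 3, both of batch 1, as the control males. Values over the 3 genotypes without the 8 libraries thus rest, for Tbet knockout males, on a single library.

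The stretches just before the start sites of 4 Hox genes whose libraries separated by sex are shown here, with Hoxd8, which was not called between the sexes, and Hoxc4, which was higher in males, for comparison. Each is the 150 bases upstream of a start site, 5′ to 3′ on the strand of the gene, from RefSeq on GRCm38.p6, with the CG dinucleotides that methylation can mark in capitals. They lie at chr6:52234940-52235089 (Hoxa10, minus strand), chr6:52245811-52245960 (Hoxa11, minus), chr2:74691741-74691890 (Hoxd10, plus), chr2:74682173-74682322 (Hoxd11, plus), chr2:74704465-74704614 (Hoxd8, plus) and chr15:103034245-103034394 (Hoxc4, plus).
Hoxa10: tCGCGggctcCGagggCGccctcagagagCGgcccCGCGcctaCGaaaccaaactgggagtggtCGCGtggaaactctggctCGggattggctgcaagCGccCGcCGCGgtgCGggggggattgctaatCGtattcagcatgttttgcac
Hoxa11: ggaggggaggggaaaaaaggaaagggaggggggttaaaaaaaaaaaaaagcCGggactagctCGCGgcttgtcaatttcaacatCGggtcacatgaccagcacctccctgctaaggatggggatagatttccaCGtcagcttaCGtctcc
Hoxd10: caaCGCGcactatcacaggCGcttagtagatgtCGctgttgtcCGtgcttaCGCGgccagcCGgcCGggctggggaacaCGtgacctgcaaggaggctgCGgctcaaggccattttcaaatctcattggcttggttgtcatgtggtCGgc
Hoxd11: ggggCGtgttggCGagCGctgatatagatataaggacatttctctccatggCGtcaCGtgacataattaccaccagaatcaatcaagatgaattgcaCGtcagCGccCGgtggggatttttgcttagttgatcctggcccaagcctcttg
Hoxd8: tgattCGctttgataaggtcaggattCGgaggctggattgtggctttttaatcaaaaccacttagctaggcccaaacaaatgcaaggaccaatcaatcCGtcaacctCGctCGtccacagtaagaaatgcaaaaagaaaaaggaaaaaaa
Hoxc4: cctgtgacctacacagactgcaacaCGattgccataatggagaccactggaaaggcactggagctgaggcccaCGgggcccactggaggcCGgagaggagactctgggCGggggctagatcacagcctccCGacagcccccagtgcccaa

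These windows held 17 CG in Hoxa10, 6 in Hoxa11, 12 in Hoxd10, 8 in Hoxd11, 5 in Hoxd8 and 5 in Hoxc4. Hoxa10 and Hoxd11 each have a further start site, not printed, with 4 and 1 CG, and the window of Hoxa9, which also separated by sex, held 2. The bases just after the start site were found in a GENCODE transcript of the gene for each printed window but that of Hoxd10. The start site of Hoxd10 is therefore less certain. RefSeq windows of 300 bases (250 before to 50 after a start site) were at hand for 22 Hox genes, 24 windows in all. They had a median of 14.5 CG per 300 bases, against 7 over all 32851 windows. In the 150 bases counted above, the median was 6.5 CG for the Hox windows and 4 over all windows. The TATA motif TATAAA, searched on both strands, was in 4 of the 24, and in 13.6% of all windows. A motif of PBX with HOX partners, TGATTNAT on both strands, was in 2 of the 24 and in 3.22% of all windows. These are matches of letters in a window and no measure of binding.

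The levels of the Hox genes themselves were compared per length, as the authors' log2 FPKM, which lists 31 of the 39. Hoxc8 was the highest in males at 5.97 ± 0.39 log2 FPKM (SD, n = 12), followed by Hoxc6 at 4.91 ± 0.23, Hoxd8 at 4.29 ± 0.45 and Hoxc4 at 4.22 ± 0.32. Hoxd8 and Hoxc4 differed by less than the spread between male libraries. In females Hoxc6 at 5.29 ± 0.38 and Hoxc8 at 5.26 ± 0.53 log2 FPKM (SD, n = 12) were within each other's spread, and Hoxd4 at 4.45 ± 0.34, Hoxd8 at 4.29 ± 0.37 and Hoxa10 at 4.11 ± 0.60 came next. Hoxa10 thus ranked at 5 of the 31 in females, and at 27 of the 31 in males with -0.70 ± 1.93 log2 FPKM. The lowest of the 31 in males were Hoxd11 at -4.61 ± 1.24, Hoxc11 at -4.39 ± 1.12 and Hoxa11 at -4.09 ± 2.05 log2 FPKM, whose spreads overlap, while Hoxa4, at 0.40 ± 0.57, was among the lowest in females.

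**Figure D1:**
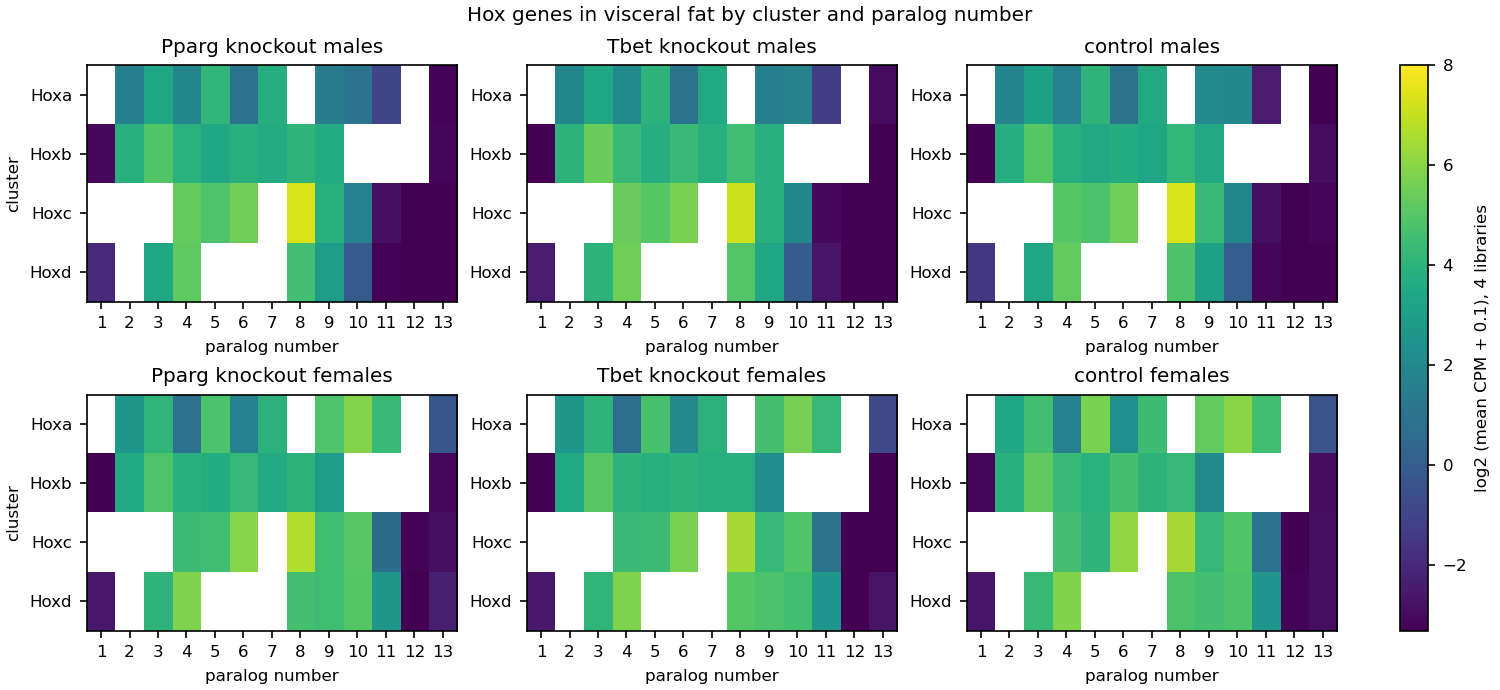
Mean level of 38 Hox genes in each group, as log2 of mean CPM + 0.1 over 4 libraries, with clusters down the side and paralog number along the bottom; white cells have no gene drawn. In the Hoxa, Hoxc and Hoxd clusters the cells of paralogs 10 and 11 are darker in the 3 male panels than in the 3 female panels.

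Males were first set against females over all 3 genotypes, with edgeR's quasi-likelihood test and Benjamini-Hochberg adjustment over all 17824 genes tested. Of the 32 Hox genes tested, 22 were called at an adjusted p under 0.05, 5 higher and 17 lower in males, where 42.8% of all genes were called (21.9% higher and 20.9% lower). The median log2 fold change of the 32 was -0.45, against 0.01 over all genes. By position, 9 of the 11 tested paralogs numbered 9 to 13 fell in males, with a median log2 fold change of -4.37 over the 11; Hoxb9 rose and Hoxc9 was not called. Paralogs 5 to 8 gave 2 higher and 4 lower of 11, and paralogs 1 to 4 gave 2 higher and 4 lower of 10. Without the 8 libraries with Pax8 over 5 CPM, 22 Hox genes were called, where 37.3% of all genes were.

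**Figure D2:**
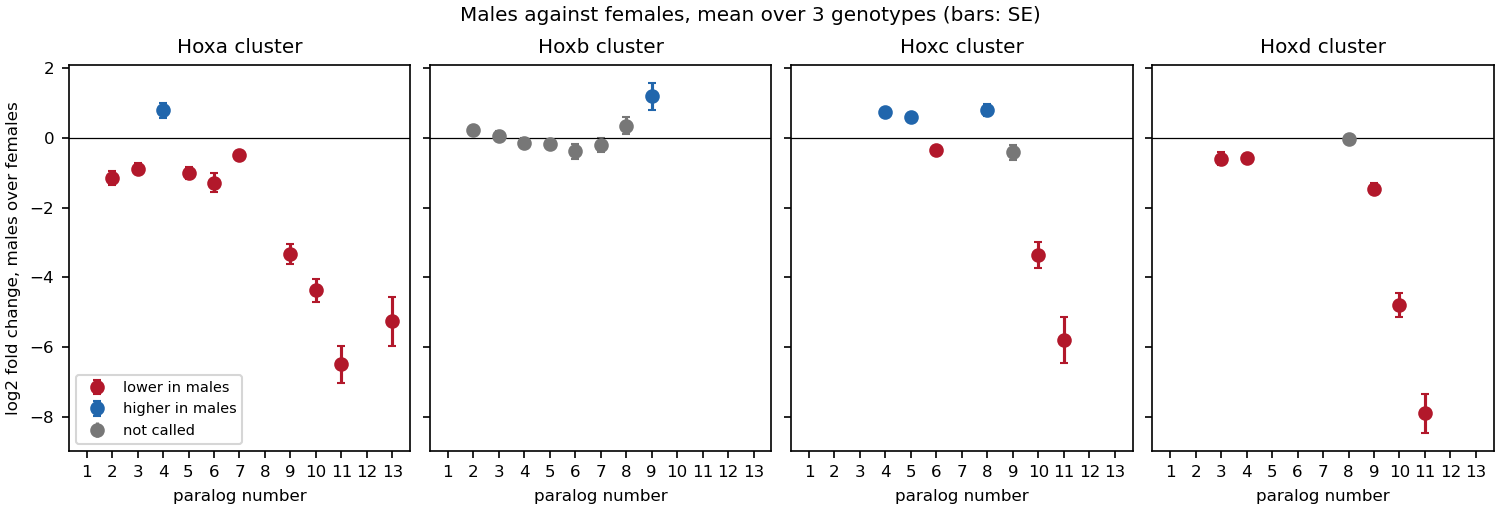
Log2 fold change of males over females, mean over the 3 genotypes, against paralog number in each cluster; points are 31 tested genes and bars are standard errors. The points fall to -6.50 for Hoxa11, -5.80 for Hoxc11 and -7.90 for Hoxd11, while Hoxb genes up to paralog 8 lie between -0.39 and 0.35.

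In cluster D the posterior genes fell in males. Hoxd11, used in the limbs and urogenital tract of the embryo, had 0, 0 and 0.189 CPM (lowest, median and highest of 12) in males, and 1.59, 4.91 and 16.7 CPM in females. Only 7 counts of Hoxd11 were seen over all male libraries, against 1565 in females, and no male library reached the lowest female one. Hoxd11 fell by 7.90 on the log2 scale (SE 0.57, adjusted p = 1.09e-08), a size that depends on the prior count since most male libraries were at 0. In controls the counts were 1 in males and 680 in females, a 557-fold lower level in males. The 95% counting interval was 99.7 to 22051, which covers counting error only. Of the 680 counts, 491 were in control female replicate 3, so the size of this fold rests largely on that library.

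Hoxd10, a neighbour with related roles in the hind body, had 0.377, 0.702 and 1.67 CPM in males, and 6.05, 16.7 and 79.9 CPM in females. The sexes did not overlap, and Hoxd10 fell by 4.79 on the log2 scale (SE 0.34, adjusted p = 1.06e-08). Hoxd9 had 4.98, 8.74 and 12.4 CPM in males, and 15.7, 19.8 and 44.2 CPM in females, and fell by 1.46 (SE 0.16, adjusted p = 1.21e-06). Hoxd9 was therefore present in every male library, at a lower level than in any female library. Hoxd8, next along the cluster, averaged 28.3 ± 8.93 CPM in males and 28.3 ± 5.84 CPM in females (SD, n = 12 each), and was not called (-0.02 on the log2 scale, adjusted p = 0.885); without the 8 libraries with Pax8 over 5 CPM it was lower in males (-0.37, adjusted p = 0.00940). At the front end of the cluster, Hoxd4 (log2 fold change -0.58) and Hoxd3 (-0.60) fell by smaller amounts, and neither was called in batch 2 alone (-0.28 for Hoxd4 and -0.06 for Hoxd3). Hoxd3 and Hoxd4 overlap each other in the annotation and could share reads, and the same holds for Hoxd10 and Hoxd11.

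In cluster A, Hoxa10, which in mice is needed for uterine function and for descent of the testis, had 0, 2.40 and 6.05 CPM in males, and 34.3, 45.0 and 123 CPM in females. The male level was 20.7-fold lower (log2 fold change -4.37, SE 0.33, adjusted p = 1.95e-08), and again the sexes did not overlap. Hoxa11, needed for the uterus and the limb, had 0, 0.140 and 1.59 CPM in males, and 5.33, 14.5 and 57.1 CPM in females; it fell by 6.50 on the log2 scale (SE 0.54, adjusted p = 6.57e-08). Hoxa9 had 0.209, 3.19 and 5.65 CPM in males, and 19.5, 28.4 and 50.7 CPM in females, and fell by 3.33 (SE 0.28, adjusted p = 9.98e-08). The end gene of the cluster, Hoxa13, which patterns the cloaca and the digits, was low everywhere, with 4 counts in males and 150 in females. Hoxa13 was at 0 in every control male library and totalled 65 counts in control females, so it was at least 17.8-fold lower in control males, taking 3 counts over the group as the floor. Unlike the other called posterior genes of clusters A, C and D, Hoxa13 overlapped between the sexes. A single male library of batch 2, where males had 3 counts in all, reached the low end of the females (at most 0.107 CPM in males, against at least 0.0944 CPM in females).

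Anterior genes of cluster A fell by less. Hoxa5, a regulator of trunk and lung pattern, had 12.4, 16.1 and 22.8 CPM in males, and 20.7, 27.7 and 123 CPM in females, and was 2.01-fold lower in males (adjusted p = 0.000191). The top value was that of control female replicate 1, and without that library the fall was 0.77 on the log2 scale. Hoxa3 had 7.62, 9.26 and 16.1 CPM in males, and 12.5, 16.4 and 40.8 CPM in females, and fell by 0.88 (SE 0.16, adjusted p = 0.000189). Hoxa2, Hoxa6 and Hoxa7 fell as well, by 1.14, 1.28 and 0.49; Hoxa7 was not called in batch 1 alone (-0.27) or without the 8 libraries with Pax8 (-0.41). Hoxa4 was the only gene of the cluster that rose (log2 fold change 0.79), and its call was lost within either batch alone (0.83 in batch 1, 0.66 in batch 2). The annotated span of Hoxa3 holds Hoxa4, Hoxa5 and Hoxa6, which could share reads with it.

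Cluster C divided by position. Hoxc10, known for differing between fat depots, had 0.0419, 2.74 and 8.38 CPM in males, and 18.8, 31.4 and 45.1 CPM in females, and fell by 3.36 on the log2 scale (SE 0.38, adjusted p = 1.93e-06). Hoxc11 gave 8 counts over all males and 471 over all females, and fell by 5.80 (SE 0.66, adjusted p = 1.95e-06). In controls the Hoxc11 counts were 3 in males and 218 in females, a 59.6-fold lower level in males (95% counting interval 20.1 to 291). Of the 218 counts, 133 were in control female replicate 3, which had the highest value of any library. Hoxc8, a trunk gene, moved the other way. It had 97.4, 146 and 253 CPM in males, and 41.9, 95.3 and 136 CPM in females, and rose by 0.80 on the log2 scale (SE 0.16, adjusted p = 0.000562). Hoxc4 had 27.7, 35.2 and 59.5 CPM in males, and 15.8, 21.4 and 35.8 CPM in females, and rose by 0.74 (SE 0.10, adjusted p = 9.08e-06). Hoxc5 rose by 0.59, but was not called in batch 2 alone (0.34), and Hoxc6 fell by 0.34, although Hoxc6 was not called without the 8 libraries with Pax8 (-0.10) or in batch 2 alone (-0.22). For Hoxc8, Hoxc4, Hoxc5 and Hoxc6 the ranges of the sexes overlapped.

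None of the 7 tested genes of cluster B numbered 8 or less was called by edgeR's test, with log2 fold changes from -0.39 to 0.35. At an unadjusted p under 0.05 there were 0 of the 7, where there were 8970 of all 17824 genes. DESeq2's test called 0 of the 7, where it called 47.0% of all genes. Both limma fits called 1 of the 7, Hoxb2, higher in males (log2 fold change 0.30, adjusted p = 0.00757 with voom, and 0.28, adjusted p = 0.0327 on log2 FPKM), where they called 45.7% and 43.7% of all genes. The batches went in opposite directions here. In batch 2 alone Hoxb2, Hoxb3 and Hoxb8 were higher in males (log2 fold changes 0.53, 0.52 and 0.98), while in batch 1 alone Hoxb3, Hoxb4, Hoxb5 and Hoxb6 were lower (-0.42, -0.55, -0.47 and -1.12). Without the 8 libraries with Pax8 over 5 CPM, 5 of whose 7 males are of batch 2, Hoxb6 (-0.92, adjusted p = 0.00160) and Hoxb7 (-0.79, adjusted p = 0.0102) were lower in males. The mean over all libraries therefore does not show that these genes are alike in the sexes. Hoxb6, the cluster's highest gene per length, averaged 15.6 ± 7.15 CPM in males and 19.9 ± 7.10 CPM in females (SD, n = 12 each; log2 fold change -0.39, SE 0.21, adjusted p = 0.135). Hoxb9 had 1.84, 14.1 and 26.1 CPM in males, and 2.46, 4.99 and 11.2 CPM in females, and rose by 1.20 (SE 0.38, adjusted p = 0.0173). Its values in males went with Pax8. The 7 male libraries with Pax8 over 5 CPM had 13.8 to 26.1 CPM of Hoxb9, and the other 5 male libraries had 1.84 to 6.52 CPM. Without the 8 libraries with Pax8, a comparison added after the values were seen, the log2 fold change of Hoxb9 was -0.51 (adjusted p = 0.272), and in batch 1 alone it was 0.46 (adjusted p = 0.332). Hoxb7 and Hoxd3 did not overlap between these 2 sets of male libraries either, with 11.4 to 20.6 CPM against 6.24 to 10.5 CPM of Hoxb7, and 9.23 to 27.3 CPM against 6.31 to 7.83 CPM of Hoxd3. These 3 of the 32 Hox genes were higher with no overlap, where 4.21% of all genes were, and 0 were lower, where 0.325% of all genes were; 5 of the 7 libraries and 1 of the 5 are of batch 2. The part of reproductive-tract transcripts in these values was not tested.

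**Figure D3:**
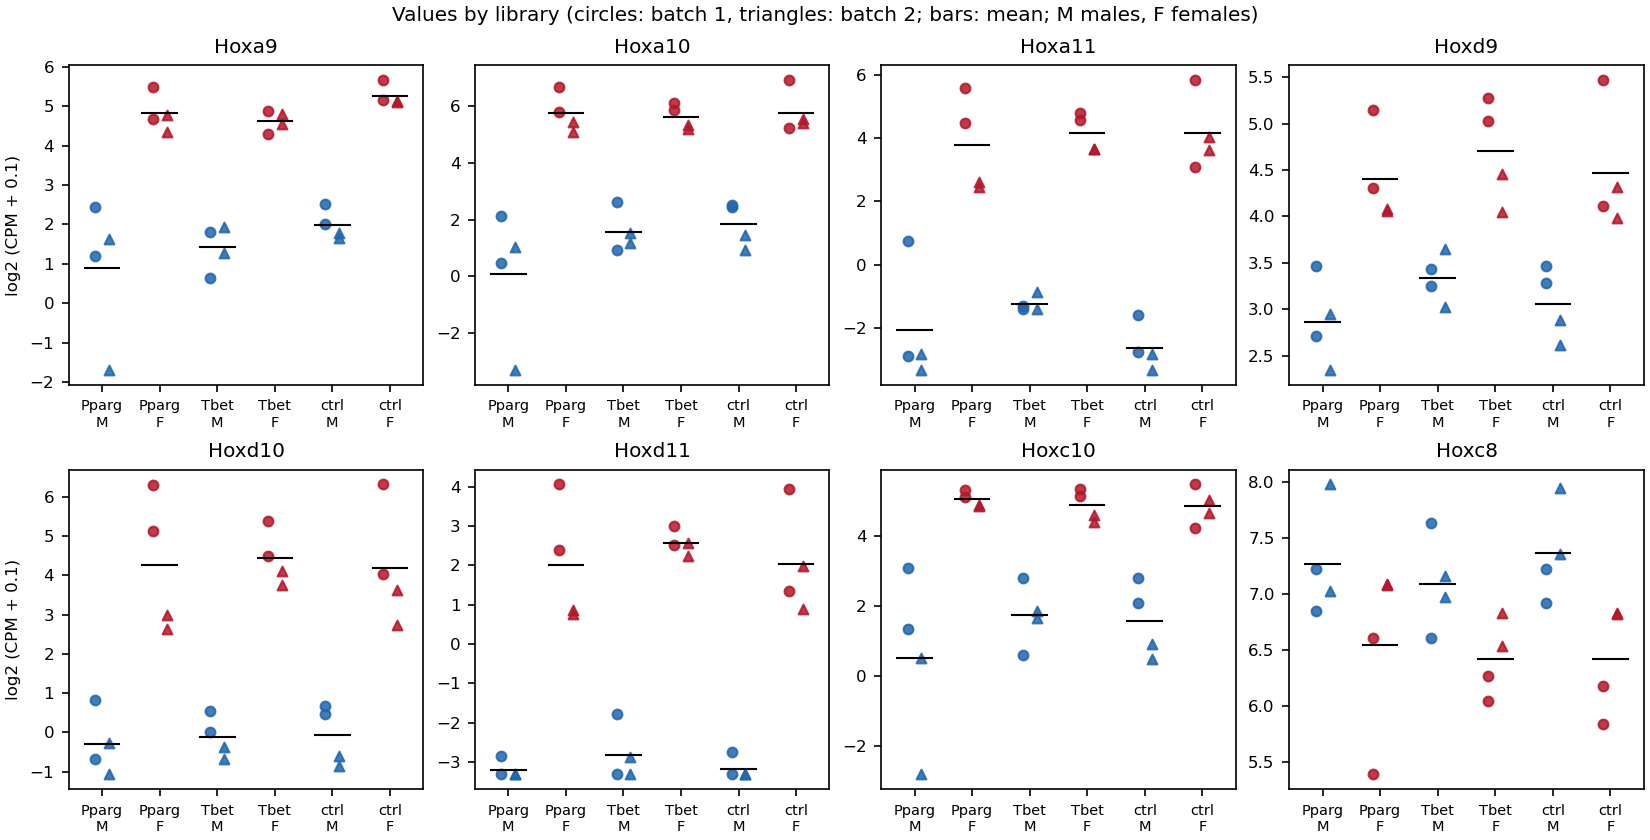
Values of 8 Hox genes in every library as log2 (CPM + 0.1), by genotype and sex (males left of females); bars are the mean of 4 libraries. All panels but Hoxc8 show male points below every female point; Hoxc8 is higher in males, with overlap.

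In all, 8 Hox genes did not overlap between the 12 male and the 12 female libraries, Hoxa9, Hoxa10, Hoxa11, Hoxc10, Hoxc11, Hoxd9, Hoxd10 and Hoxd11, and all 8 were lower in males; 1.32% of all genes tested were lower in males with no overlap. No Hox gene was higher with no overlap, where 0.567% of all genes were. Summed markers of other cell types were set side by side in the sexes, with no test run. For each list the ranges of the sexes overlapped. Markers of adipose stromal progenitors, the cells known to carry positional Hox patterns, were 1843 to 2572 CPM in males (median 2130) and 2320 to 5180 CPM in females (median 3686). Mesothelial markers were 56.5 to 405 CPM in males (median 139) and 237 to 801 CPM in females (median 477). Endothelial markers were 1133 to 1914 CPM in males (median 1304) and 371 to 1180 CPM in females (median 981). Leukocyte markers were 618 to 1319 CPM in males (median 848), within the range in females of 218 to 1418 CPM (median 575). None of the 10 stromal markers was at 0 in control female replicate 1 or Tbet knockout male replicate 4. The part of these cell types in the Hox values was not tested.

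The comparison was repeated within each genotype. In controls, 20 Hox genes were called between males and females, 2 higher (Hoxc5 and Hoxc8) and 18 lower, where 27.2% of all genes were called (13.6% higher and 13.6% lower). Hoxb6 was among them, with 8.80, 19.7, 9.30 and 13.04 CPM in control males (replicates 1 to 4) and 37.9, 20.6, 24.4 and 17.9 CPM in control females. Its fall of 1.03 on the log2 scale (SE 0.35, adjusted p = 0.0365) became 0.72 (adjusted p = 0.130) without control female replicate 1. Hoxc6 and Hoxd3 were not called without that library either. Over 19 alternatives, the call in controls was lost in 9 for Hoxb6, 7 for Hoxd3, 6 for Hoxd4, 5 for Hoxc6 and 5 for Hoxc8. In Pparg knockouts 11 Hox genes were called between males and females, 1 higher (Hoxc4) and 10 lower, where 8.77% of all genes were called (3.59% higher and 5.18% lower). The call of Hoxd4 there was lost in 8 of 19 alternatives. In Tbet knockouts 11 were called, 2 higher (Hoxa4 and Hoxc4) and 9 lower, where 9.31% of all genes were called (3.93% higher and 5.38% lower). The call of Hoxa4 there (adjusted p = 0.0302) was lost in 9 of 19 alternatives. Hoxa13, with 3 counts in Tbet knockout males and 25 in Tbet knockout females (adjusted p = 0.0468), lost its call in 15 of 18. Without the 8 libraries with Pax8 over 5 CPM, 13 Hox genes were called in Pparg knockouts and 17 in controls, where 817 and 4736 of 18908 genes were. Tbet knockout males then had replicate 3 alone, so no count is given for that genotype. With all libraries, Hoxa9, Hoxa10, Hoxa11, Hoxa13, Hoxc10, Hoxc11, Hoxd9, Hoxd10 and Hoxd11 were called lower in males in each of the 3 genotypes. For Hoxa13 in Tbet knockouts that call was lost in 15 of 18 alternatives, as given above. For Hoxd10 the log2 fold change of males over females was -4.87 (SE 0.60) in Pparg knockouts, -4.77 (SE 0.59) in Tbet knockouts and -4.72 (SE 0.59) in controls, and for Hoxa10 it was -5.05 (SE 0.59), -3.99 (SE 0.56) and -4.07 (SE 0.56).

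Whether loss of Pparg or Tbet in regulatory T cells went with a change in Hox genes was asked within each sex. No Hox gene was called in any of the 4 comparisons of knockout with control by edgeR's test. All genes were called at 0.0168% in Pparg knockout females, 0% in Pparg knockout males, 1.22% in Tbet knockout females and 0.00561% in Tbet knockout males. At an unadjusted p under 0.05 there were 5, 0, 4 and 0 of the 32 Hox genes in these comparisons. Of all 17824 genes there were 2128, 454, 3088 and 780. DESeq2's test called 1 Hox gene, Hoxa5, lower in Tbet knockout females (log2 fold change -0.94, adjusted p = 0.0465), and 0 in the other 3. Of all genes it called 2.06% in Pparg knockout females, 0.00561% in Pparg knockout males, 6.93% in Tbet knockout females and 0.118% in Tbet knockout males. The knockouts share their controls within a sex. The median log2 fold change of the 32 Hox genes was -0.26 in Pparg knockout females, 0.04 in Pparg knockout males, -0.22 in Tbet knockout females and 0.25 in Tbet knockout males, the medians in males leaving out 2 genes with too few counts.

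The smallest adjusted p of a Hox gene in the females was that of Hoxa5 in Tbet knockouts (log2 fold change -0.93, SE 0.31, adjusted p = 0.135) and of Hoxa6 in Pparg knockouts (-1.38, SE 0.48, adjusted p = 0.298). Hoxa5 had 35.3, 26.4, 25.3 and 23.3 CPM in Pparg knockout females and 27.6, 27.7, 29.3 and 20.7 CPM in Tbet knockout females, against 123, 27.7, 33.4 and 29.6 CPM in control females. Apart from control female replicate 1, the library with oviduct transcripts, all values of Hoxa5 were thus between 20.7 and 35.3 CPM. Hoxd8 had 31.9, 33.0, 29.4 and 32.6 CPM in Tbet knockout females, against 19.0, 35.6, 25.3 and 35.1 CPM in control females (log2 fold change 0.20, SE 0.17, adjusted p = 0.603). Hoxa10 had 1.29, 0, 4.25 and 1.94 CPM in Pparg knockout males, against 5.40, 1.80, 5.61 and 2.62 CPM in control males (log2 fold change -1.09, SE 0.56, adjusted p = 1). Hoxa13 in both knockouts, Hoxd11 with Pparg and Hoxc11 with Tbet had at most 3 counts in each of the male groups compared, so no fold is given for them there. The difference between the knockout effect in males and in females was called for 0 Hox genes in either knockout by edgeR or DESeq2, where edgeR called 0% of all genes for Pparg and 0.00561% for Tbet, and DESeq2 called 0.342% and 1.32%. Unadjusted p by edgeR's test was under 0.05 for 2 Hox genes with Pparg and 5 with Tbet. Of all 17824 genes it was for 1095 and 2050. The smallest adjusted p of a Hox gene by that test were 0.805 (Hoxa7) and 0.357 (Hoxb6).

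The edgeR test of each comparison had batch as a term. Between batch 2 and batch 1, a comparison looked at after the values were seen, 5 Hox genes rose and 12 fell of the 32, a share near that of all genes, of which 51.7% were called (26.0% higher and 25.7% lower). With control female replicate 1 in batch 2, as its source name has it, 14 of the 32 were called, and 8937 of 17824 genes. Hoxa6 was 3.22 to 3.53 CPM in batch 2 males and 5.15 to 8.59 CPM in batch 2 females, against 0.280 to 0.609 CPM in batch 1 males and 0.526 to 5.40 CPM in batch 1 females (log2 fold change 2.62, SE 0.29, adjusted p = 2.01e-07). The 5.40 CPM is that of control female replicate 1, and with it in batch 2 the log2 fold change was 2.87. Hoxa6 lies inside the annotated Hoxaas3 and Hoxa3 spans; the strand setting of the counting is not given in the sources used here, so their reads may not be told apart. Hoxd10 fell in batch 2 (log2 fold change -1.74, SE 0.32, adjusted p = 0.000118), with 6.05 to 17.2 CPM in batch 2 females against 16.2 to 79.9 CPM in batch 1 females, of which control female replicate 1 was the lowest. Within each batch the males of Hoxd10 stayed below all females, at 0.377 to 0.728 CPM in batch 2 and 0.529 to 1.67 CPM in batch 1. Within batches the count of Hox genes called between males and females over the 3 genotypes was 21 in batch 2 and 23 in batch 1, where 28.9% and 41.5% of all genes were called.

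**Figure D4:**
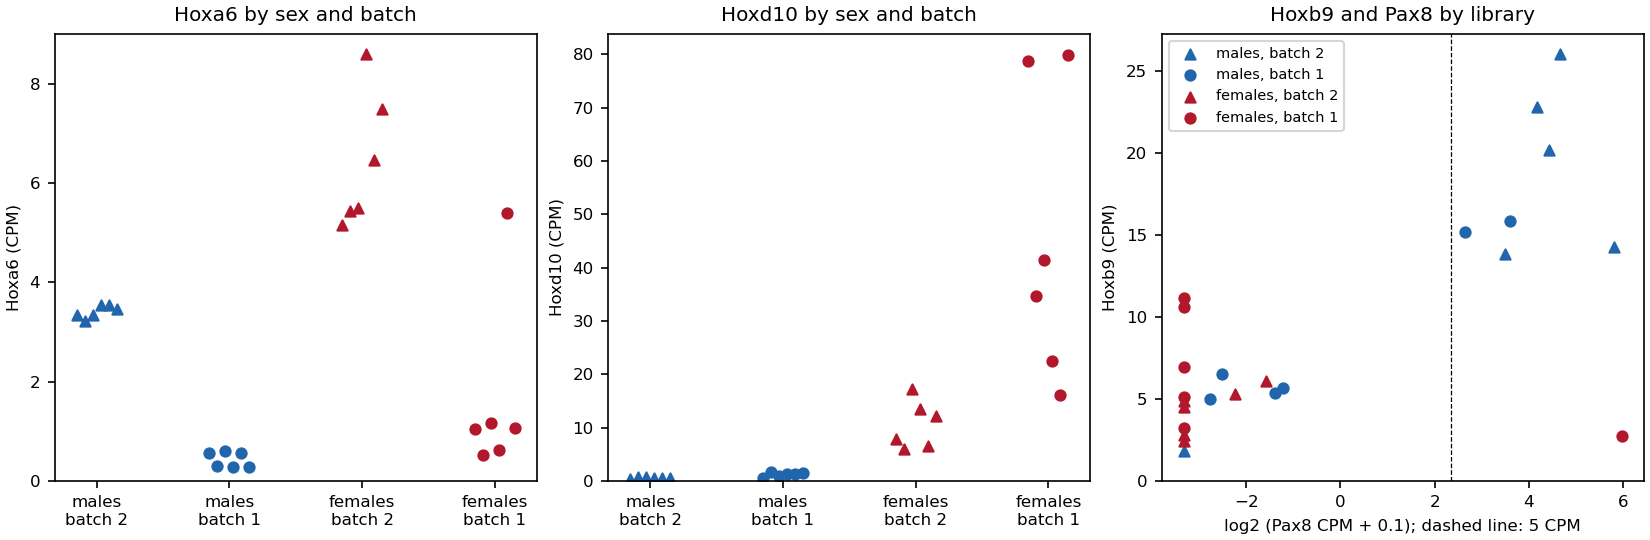
Hoxa6 and Hoxd10 in CPM by sex and batch, and Hoxb9 in CPM against log2 (Pax8 CPM + 0.1), with 1 point per library (triangles batch 2, circles batch 1). Hoxa6 is higher in batch 2 in both sexes apart from 1 batch 1 female at 5.40 CPM, control female replicate 1, whose labels disagree on its batch, and the 7 male libraries right of the 5 CPM line have the highest Hoxb9, at 13.8 to 26.1 CPM.

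Non-coding genes within the clusters were counted in 10 of 12 cases listed, and 7 of these were tested between males and females, 1 higher and 4 lower in males, where 21.9% of all genes were higher and 20.9% lower. Hoxa11os, an antisense transcript of the Hoxa11 locus, averaged 0.152 ± 0.184 CPM in males and 14.4 ± 11.3 CPM in females (SD, n = 12 each; log2 fold change -6.59, adjusted p = 3.84e-08). Without the strand setting its reads and those of Hoxa11 cannot be told apart. Hotair, a long non-coding RNA of cluster C, had 0 to 0.0467 CPM in males and 0 to 3.47 CPM in females (log2 fold change -6.37, adjusted p = 2.24e-05). Hoxaas3 fell by 1.03 on the log2 scale (adjusted p = 0.00703).

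The clusters also hold the microRNAs miR-196 and miR-10, small RNAs that silence target transcripts, among them Hox transcripts, through bases 2 to 8 of the mature form (the seed). Total RNA libraries of this kind do not count mature microRNAs, and reads at these rows belong to longer transcripts that cross them. Their mature sequences from RefSeq on GRCm38.p6 are shown because copies from different clusters share a seed, in capitals. The miR-196 seed is in clusters A, B and C, and the miR-10 seed in clusters B and D.
miR-196b-5p: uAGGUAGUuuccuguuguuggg
miR-196a-5p: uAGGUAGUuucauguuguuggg
miR-10a-5p: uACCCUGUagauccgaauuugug
miR-10b-5p: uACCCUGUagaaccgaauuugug

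Mir196b, in cluster A between Hoxa9 and Hoxa10, averaged 0.0850 ± 0.0579 CPM in males and 0.390 ± 0.250 CPM in females (SD, n = 12 each) and was lower in males (adjusted p = 0.00539). Mir196a-1 and Mir10a in cluster B were not called (adjusted p = 0.455 and 0.973).

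Genes that act with Hox proteins were read in the same fit. Of the 9 TALE homeodomain genes, whose products bind DNA with Hox proteins, 6 were lower in males and none higher, with a median log2 fold change of -0.43. Meis2 averaged 18.7 ± 2.30 CPM in males and 144 ± 102 CPM in females (log2 fold change -2.72, adjusted p = 6.88e-07), and Meis1 fell by 1.82 (adjusted p = 3.72e-06), Pknox2 by 1.98 (adjusted p = 2.42e-05) and Meis3 by 0.43 (adjusted p = 0.00168). Of 24 Polycomb and trithorax genes, which keep Hox genes silent or active through cell division, 1 was higher and 9 lower, with a median of -0.13. Kdm6a, an X-linked demethylase, fell by 0.77 (adjusted p = 1.45e-08), Ring1 fell by 0.55, Cbx2 fell by 0.94, and Rnf2 rose by 0.21.

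Retinoic acid sets the front limit of Hox expression in the embryo. Of 17 tested genes of its synthesis, breakdown and receptors, 6 were higher and 3 lower in males, with a median log2 fold change of -0.15. Aldh1a1, a retinoic acid synthesis enzyme, averaged 360 ± 79.0 CPM in males and 175 ± 58.8 CPM in females (log2 fold change 1.08), and Aldh1a3, another, rose by 1.11. The receptor gene Rarg fell by 0.35. Aldh1a3 was the sole member called in a knockout, with 29.1 ± 8.93 CPM in Tbet knockout females and 13.2 ± 4.10 CPM in control females (SD, n = 4 each; log2 fold change 1.12, adjusted p = 0.0363). Of 21 tested further developmental genes that differ between fat depots, 5 were higher and 9 lower in males, with a median of -0.84. Wt1, a transcription factor of visceral fat progenitors and mesothelium, averaged 12.7 ± 4.16 CPM in males and 96.6 ± 58.5 CPM in females (log2 fold change -2.81, adjusted p = 1.45e-08). Hand2 fell by 2.81, Nr2f1 by 0.97 and Tcf21 by 1.26. These lists were compared with 21.9% higher and 20.9% lower over all genes.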

How the data were processed

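The authors deposited raw counts per gene for 24 libraries, which the submitters' processing notes link to featureCounts and GRCm38 (mm10). The aligner, tool versions and strand setting were not given in the sources used here. They also deposited log2 FPKM values per library for 15764 genes; limma is among the tools in the submitters' processing notes. Here 27179 genes were read, 1029 (3.79%) of them without a symbol; 17824 passed edgeR's filterByExpr by group. Counts were scaled by TMM, and edgeR 4.0.16 (R 4.3.3) fitted 6 group means and batch with the robust quasi-likelihood test, leaving 17 residual degrees of freedom. CPM in the text are TMM-scaled and compared within a gene, log2 FPKM between genes. Genes with an adjusted p under 0.05 were called, in 10 comparisons. The test was tried on simulated data. Full values are given for up to 12 called genes with the smallest adjusted p, the highest gene per length and the highest tested paralog of each cluster. Members and lists were chosen with earlier results of these data known. Alternatives were DESeq2 1.42.0, limma 3.58.1, other scaling, filtering, batch and block terms, each batch alone and each library left out. Total counts ranged from 8345575 to 31022845. The lowest chi-square per degree of freedom over 36 replicate pairs was 15.8, so no library was a repeat of another of its group. Pairs across groups were not compared. The value cannot tell separate libraries of the same animal from those of different animals. The single values of 2 genes, 1 of them a Hox gene, are not reported here.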

Additional observations from a re-analysis of the deposited data

Results flagged for a closer look

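Among 16 Hox genes described in full, 89 sets of 4 libraries with more than 3 counts were examined. In 14 of them a single library was picked out as far from the other 3. A rate by chance of about 1 set in 20 holds for 4 independent values of the same kind. Here each set mixes 2 batches and the sets share libraries, so the 14 cannot be read against that rate. Control female replicate 3 stood above the other control females in 6 genes, all paralogs 9 to 11 of clusters A and D. It had 123 CPM of Hoxa10 (others 37.6 to 46.5), 57.1 CPM of Hoxa11 (others 8.35 to 16.4), 50.7 CPM of Hoxa9 (others 34.2 to 35.2), 79.9 CPM of Hoxd10 (others 6.58 to 16.2), 15.4 CPM of Hoxd11 (others 1.74 to 3.87) and 44.2 CPM of Hoxd9 (others 15.7 to 19.8). Control female replicates 2 and 4 are of batch 2, and the labels of replicate 1 disagree on its batch. Replicate 3 is thus the only control female that both labels place in batch 1. Of the 6 genes, all but Hoxa9 were called lower in batch 2, with log2 fold changes from -1.74 for Hoxd10 to -0.58 for Hoxd9. The part of batch in these values was not tested. Pparg knockout female replicate 1 had 35.2 CPM of Hoxd9 (others 16.6 to 19.7). Control female replicate 1 had 123 CPM of Hoxa5 (others 27.7 to 33.4).

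Among males, Pparg knockout replicate 3 had 1.59 CPM of Hoxa11 (others 0 to 0.0419) and 0.152 CPM of Hoxc11 (others 0). Tbet knockout male replicate 4, the smallest library of its group at 12551619 total counts, had 0.451 CPM of Hoxa11 (others 0.284 to 0.305). Control male replicate 2 had 11.4 CPM of Hoxa3 (others 7.62 to 7.80), and Pparg knockout male replicate 4 had 39.1 CPM of Hoxd8 (others 19.0 to 21.2). Pparg knockout female replicate 4 was low, with 0.0971 CPM of Hoxa13 (others 0.861 to 0.977). Hoxa11 had 77 counts and Hoxc11 had 8 over all male libraries, and Hoxa13 had 150 over all female libraries. The values of these genes given here therefore rest on few counts, and may not be differences between the libraries.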

How the results depend on the processing

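Over the libraries left out in turn, the count of Hox genes called between males and females stayed at 22 to 23 over the 3 genotypes, 16 to 20 in controls, 10 to 12 in Pparg knockouts and 9 to 12 in Tbet knockouts, and at 0 in each comparison of knockout with control and of their differences between the sexes. Within batches it moved to 11 in controls and 4 in Pparg knockouts in batch 2, where 1307 and 53 of 17925 genes were called. In Tbet knockouts it moved to 5 in batch 1, where 433 of 17908 genes were called. In batch 2 it moved to 6 there, where 1072 of 17925 genes were called. Such fits have fewer libraries. DESeq2's test called 1 Hox gene in Tbet knockout females against control females; the cause was not tested. Without a batch term the count over the 3 genotypes was 19, where 5140 of 17824 genes were called. Hoxa6, Hoxd3 and Hoxd4 were no longer called. Hoxb9 turned to -0.51 without the 8 libraries with Pax8 over 5 CPM, and Hoxd8 in Tbet knockout females against control females turned to -0.11 in batch 2 alone; neither was called there, and the cause was not tested.

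Samples with the same number correlated between -0.28 and 0.44 (median 0.01, 60 pairs) once group and batch means were removed. With group means alone removed, which leaves batch in, they correlated between -0.18 and 0.70 (median 0.22). These values cannot exclude a link between some samples of the same number. With a replicate block replacing batch, 22 Hox genes were called between the sexes over the 3 genotypes, where 7417 of 17824 genes were. In controls 19 were called, where 4508 of 17824 genes were, and Hoxb6 missed the threshold at -1.02 (edgeR adjusted p = 0.0520). No Hox gene was called between a knockout and its control, where at most 128 of 17824 genes were. Counts limit some genes: 7 of the 39, at both ends of the clusters, could not be tested, and Hoxa13, Hoxc11 and Hoxd11 had 4, 8 and 7 counts over all male libraries, where a lower level could not be seen.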
